A study of Mus musculus with 6 samples.

Results

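Globin and erythroid genes were followed in RNA-seq counts of blood endothelial cells (BECs) and lymphatic endothelial cells (LECs). The set holds 9 genes of the 24421 listed, taken by symbol: the definitive globins Hba-a1, Hba-a2, Hbb-bs and Hbb-bt, the embryonic globins Hba-x, Hbb-bh1 and Hbb-y, and Alas2 and Slc4a1. All 9 are in the count table. Of these, 5 had a read in at least 1 library, and the 4 definitive globins were listed at 0 in all 6 libraries.

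Hemoglobin joins alpha-like and beta-like globin chains around heme. In the mouse embryo, primitive red cells from the yolk sac carry embryonic globins, among which Hbb-bh1 gives way to Hbb-y as the cells mature, and definitive red cells from the fetal liver carry the adult chains. Alas2 starts heme synthesis in red cells, and Slc4a1 is band 3, the anion exchanger of the red cell membrane.

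The skin BECs came from E15.5 embryos, and both genotypes carry the floxed alleles Dot1l 2f/2f. The Cont embryos are Tie2-Cre(-) and the conditional knockout (cKO) embryos Tie2-Cre(+), a Cre that acts in endothelium and also in blood lineages. RNA of 2 to 3 skins was pooled into 1 library per genotype, from CD31+ cells negative for CD45, F4/80 and Lyve1. No antibody to a red cell marker is named for this sort. The cultured cells are a yolk sac BEC line (CRL-2581) and dermal LECs (C57-6064L), transduced with empty lentivirus (Cont) or with a virus that brings dCas9-VP64 to the Dot1l promoter (OE), and sorted for GFP. Each condition has 1 library, so no test against replicates was possible, and every comparison is one between 2 libraries. Totals ran from 8863349 to 31032461 reads. The alpha-like genes lie on chromosome 11 and the beta-like genes on chromosome 7, with Alas2 at chrX:150547375-150570638 and Slc4a1 at chr11:102348824-102366203 (GRCm38). Levels are counts scaled to the library total (CPM), and each ratio has an exact 95% interval on the reads of both libraries, which covers counting error only.

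The count of the targeted gene did not separate the skin libraries. For Dot1l the skin pair held 762 (Cont) and 944 (cKO) reads, 86.0 and 85.2 CPM. Reads of exons outside the floxed part count towards the gene, so this value does not check the deletion. In culture Dot1l went from 1972 to 4208 reads in BECs, 111.5 and 302.0 CPM, a ratio of 2.71. In LECs it went from 2490 to 6720 reads, 95.3 and 216.5 CPM, a ratio of 2.27. Endothelial genes were abundant in both skin libraries, with Cdh5, an endothelial cadherin, at 1511 and 968 CPM. Ptprc, which encodes CD45, had 1206 and 2340 reads despite the depletion.

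The definitive globins could not be compared with the embryonic ones, because Hba-a1, Hba-a2, Hbb-bs and Hbb-bt had 0 reads in each of the 6 libraries. The count table also lists Hbb-b1 and Hbb-b2, the adult beta globin names of another mouse haplotype, at 0 in each library. The zeros are what the table lists, and no upper limit on the RNA is drawn from them. The first 75 coding bases of the globins (GENCODE M21, GRCm38) are shown because they set the definitive pairs beside the embryonic genes. The windows are chr11:32283707-32283781 (Hba-a1), chr11:32296524-32296598 (Hba-a2) and chr11:32276664-32276738 (Hba-x), all on the plus strand, and capitals mark bases that differ from Hba-a1.
Hba-a1: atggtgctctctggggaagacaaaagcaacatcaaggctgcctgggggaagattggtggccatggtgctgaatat
Hba-a2: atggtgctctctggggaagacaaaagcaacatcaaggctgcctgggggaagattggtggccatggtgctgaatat
Hba-x: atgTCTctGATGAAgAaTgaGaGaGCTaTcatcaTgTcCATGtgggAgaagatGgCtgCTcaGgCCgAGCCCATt
Over these bases Hba-a1 and Hba-a2 are identical, and Hba-x differs from Hba-a1 at 38 of 75 positions.

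For the beta-like genes the windows are chr7:103827801-103827875 (Hbb-bs), chr7:103813795-103813869 (Hbb-bt), chr7:103843036-103843110 (Hbb-bh1) and chr7:103853078-103853152 (Hbb-y), all on the minus strand. Capitals mark bases that differ from Hbb-bs.
Hbb-bs: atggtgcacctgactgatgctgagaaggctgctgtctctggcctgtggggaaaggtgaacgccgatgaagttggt
Hbb-bt: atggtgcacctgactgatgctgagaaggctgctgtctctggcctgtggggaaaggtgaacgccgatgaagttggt
Hbb-bh1: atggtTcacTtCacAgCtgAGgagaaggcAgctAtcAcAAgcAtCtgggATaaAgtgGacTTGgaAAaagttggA
Hbb-y: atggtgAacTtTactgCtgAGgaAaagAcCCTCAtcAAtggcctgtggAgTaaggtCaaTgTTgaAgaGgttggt
Hbb-bs and Hbb-bt are identical over these bases, while Hbb-bh1 differs at 24 and Hbb-y at 23 of 75 positions.

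The same split held over whole transcripts. Of all windows of 75 bases, the longest read kept by the trimming, 62.2% in Hba-a1 and 81.0% in Hba-a2 also occur in the transcript of another gene. The shares are 64.3% in Hbb-bs and 56.6% in Hbb-bt. Hba-a1 and Hba-a2 have 389 such windows in common, and Hbb-bs and Hbb-bt have 356. In Hba-x, Hbb-bh1, Hbb-y, Alas2 and Slc4a1 no window is shared. Of all genes with a transcript in this annotation, 38.8% of the 590 genes with over 50 to 90% of shared windows had no read in any library, against 12.3% of the 17059 genes with none shared. Why the definitive globins are at 0 was not tested.

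**Figure D1:**
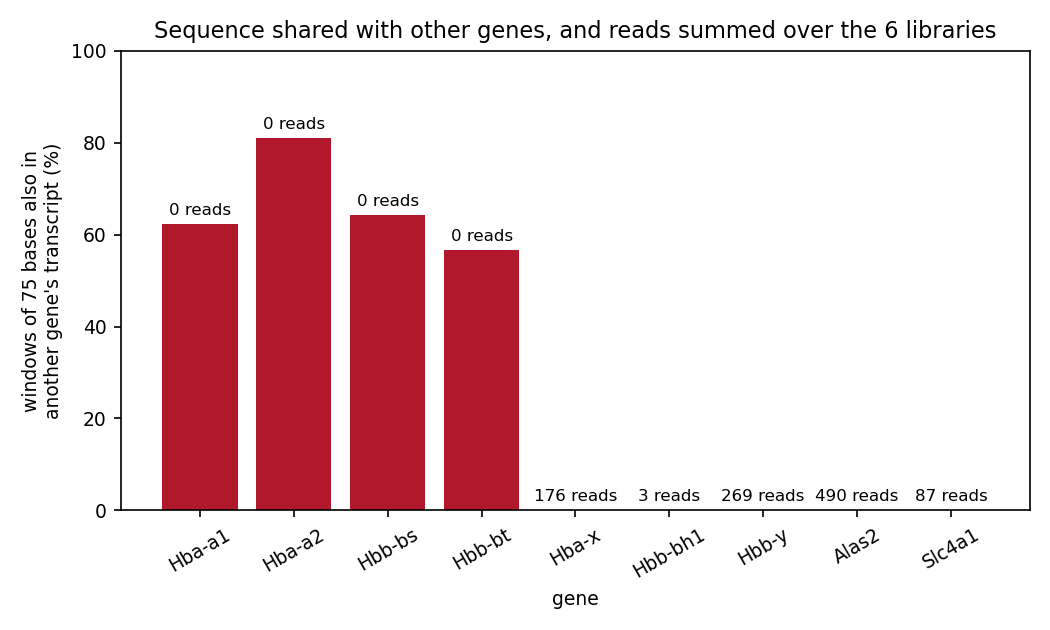
Share of windows of 75 bases that also occur in another gene's transcript (y axis, percent) for the 9 genes (x axis), with the reads summed over the 6 libraries printed above each bar. The 4 definitive globins lie between 56.6% and 81.0% and have 0 reads, and the other genes lie at 0% and have 3 to 490 reads.

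Of the embryonic globins, Hba-x and Hbb-y were higher in cKO BECs than in Cont BECs. Hba-x, the embryonic alpha-like chain (zeta globin), had 4 reads in Cont BECs and 172 in cKO BECs. These are 0.451 and 15.52 CPM, a ratio of 34.4 (interval 13.2 to 128). Its Cont level stood 1 read above the floor of 3 reads, and the interval of the ratio is accordingly wide. Hba-x had 0 reads in all 4 cultured libraries. In a bulk library, more embryonic red cells or their RNA in the sample and more globin RNA per cell cannot be told apart.

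Hbb-y, the late embryonic beta-like chain (epsilon-y globin), had 18 reads in Cont BECs and 249 in cKO BECs. These are 2.03 and 22.5 CPM, a ratio of 11.1 (interval 6.86 to 19.0). In culture it had 2 reads in Cont LECs and 0 in the other libraries. The skin libraries held nearly all of its reads, and the cKO library most of them.

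Hbb-bh1, the early embryonic beta-like chain, was at or under 3 reads everywhere. It had 2 reads in cKO BECs, 1 in OE-LECs and 0 in the other libraries, so no ratio is given. Among the embryonic globin reads of the cKO library it took 0.473% (exact binomial interval 0.0573 to 1.70), against 58.9% (54.0 to 63.6) for Hbb-y and 40.7% (35.9 to 45.5) for Hba-x. In Cont BECs Hba-x took 18.2% of 22 reads (interval 5.19 to 40.3) and Hbb-bh1 took 0, which allows a share of up to 15.4%. The odds of an Hba-x read against an Hbb-y read were 3.10 times as high in cKO BECs, with an exact interval of 0.998 to 12.8, so these reads could not show a change in their balance.

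By the rule of the study's methods, a gene is called when its higher median of ratios normalized count is at least 5 in the skin pair (3 in the OE pairs) and more than 3 times the lower one. In the skin pair the rule called 2 of the 9 genes higher, Hba-x and Hbb-y, and 0 lower. Over all 15554 genes that reached 10 reads in both skin libraries together, 4.24% were called higher and 1.7% lower. Only 4 of the 9 genes reached 10 reads. Among 15128 genes above 3 reads in both libraries, the ratio of Hba-x was the 5th highest and that of Hbb-y the 17th.

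Together the embryonic globins had 22 reads in Cont BECs and 423 in cKO BECs. The sum was 2.48 and 38.2 CPM, a ratio of 15.4 (interval 10.02 to 24.8).

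**Figure D2:**
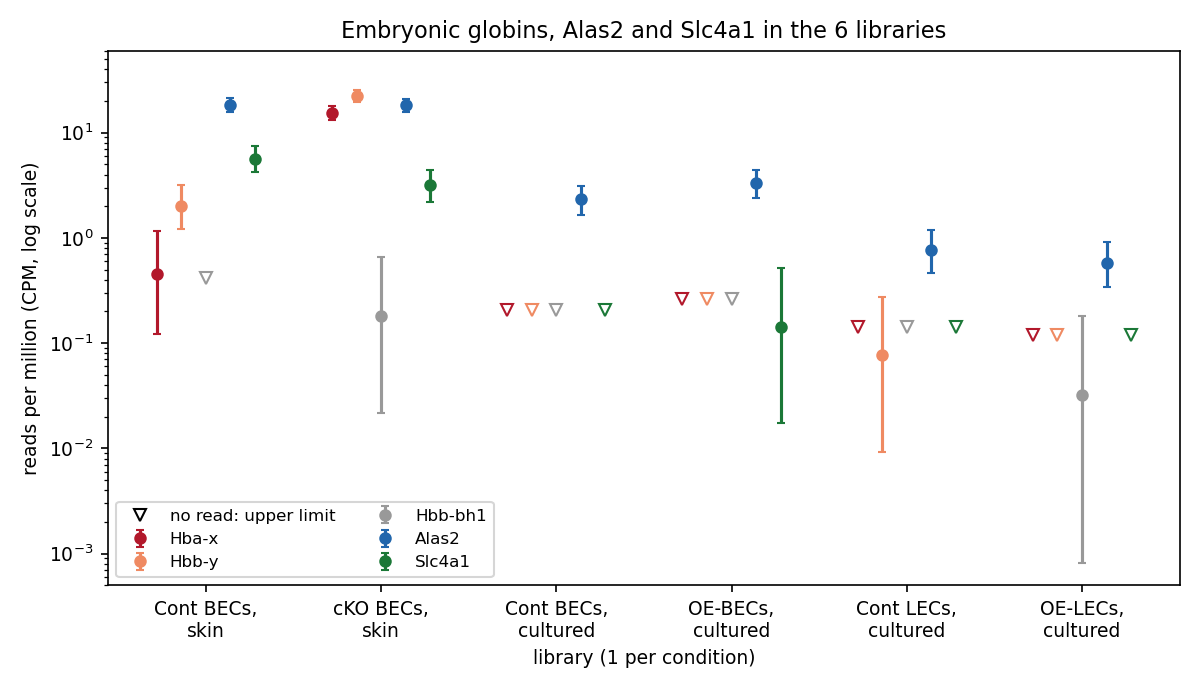
CPM (y axis, log scale) of the 5 genes with reads in each of the 6 libraries (x axis), where points are single libraries, bars are exact 95% Poisson intervals and open triangles are the upper limit for a gene with no read. Hba-x and Hbb-y stand at 15.52 and 22.5 CPM in cKO BECs against 0.451 and 2.03 in Cont BECs, while Alas2 stands at 18.1 against 18.5.

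The other red cell genes of the set did not follow the globins. Alas2 had 164 reads in Cont BECs and 201 in cKO BECs. These are 18.5 and 18.1 CPM, a ratio of 0.980 (0.793 to 1.21), an interval that holds 1. Alas2 overlaps the gene Apex2 on the opposite strand, and Apex2 itself had 87 and 105 reads. Slc4a1 had 50 reads in Cont BECs and 35 in cKO BECs, which is 5.64 and 3.16 CPM. Its ratio of 0.560 (interval 0.353 to 0.879) lies below 1, and the rule did not call it. The intervals of Alas2 and Slc4a1 lie wholly below those of Hba-x and Hbb-y.

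With CPM divided by transcript length in kilobases, the order of the 4 genes differed between the skin libraries. In Cont BECs Alas2 led at 9.08 (Poisson interval 7.75 to 10.6), followed by Hbb-y at 3.21 (1.90 to 5.07), Slc4a1 at 1.24 (0.921 to 1.64) and Hba-x at 0.563 (0.154 to 1.44). The last pair overlap in their intervals. In cKO BECs Hbb-y led at 35.5 (31.2 to 40.2), followed by Hba-x at 19.4 (16.6 to 22.5), Alas2 at 8.90 (7.71 to 10.2) and Slc4a1 at 0.695 (0.484 to 0.966), with no overlap between neighbours.

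In the cultured libraries only Alas2 was above 3 reads. The cultured BECs gave it 41 (Cont) and 46 (OE) reads, or 2.32 and 3.30 CPM, a ratio of 1.42 (interval 0.914 to 2.22). In LECs it had 20 reads in Cont and 18 in OE, which is 0.766 and 0.580 CPM, a ratio of 0.757 (interval 0.378 to 1.51). Both intervals hold 1. Slc4a1 had 2 reads in OE-BECs and 0 in the other cultured libraries. The rule called none of the 9 genes in either OE comparison, but among them only Alas2 reached 10 reads in either pair. Of the 13396 genes that reached 10 reads in the BEC pair, the rule called 3.25% higher and 3.46% lower. Of the 13028 genes that did so in the LEC pair, the rule called 1.49% higher and 0.867% lower.

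The promoters of the called genes and of Alas2 (RefSeq, GRCm38.p6, 250 bases before to 50 after the start) are shown because Hba-x and Hbb-y differed together and Alas2 did not. Sequences of 7 of the 9 genes were found by symbol. Capitals mark AGATAA and TGATAA, letters that GATA factors are known to bind, and CACCC, the core of the box bound by Klf1, searched on both strands, where neighbouring CACCC may adjoin. Hba-x and Alas2 are on the plus strand and Hbb-y on the minus strand.
Hba-x, chr11:32276350-32276649: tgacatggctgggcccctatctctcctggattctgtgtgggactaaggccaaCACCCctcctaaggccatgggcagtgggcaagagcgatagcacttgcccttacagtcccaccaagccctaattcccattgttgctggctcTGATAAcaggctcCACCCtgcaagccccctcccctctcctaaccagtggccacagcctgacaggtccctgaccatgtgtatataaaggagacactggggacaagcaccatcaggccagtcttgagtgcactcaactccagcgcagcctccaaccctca
Hbb-y, chr7:103853158-103853457: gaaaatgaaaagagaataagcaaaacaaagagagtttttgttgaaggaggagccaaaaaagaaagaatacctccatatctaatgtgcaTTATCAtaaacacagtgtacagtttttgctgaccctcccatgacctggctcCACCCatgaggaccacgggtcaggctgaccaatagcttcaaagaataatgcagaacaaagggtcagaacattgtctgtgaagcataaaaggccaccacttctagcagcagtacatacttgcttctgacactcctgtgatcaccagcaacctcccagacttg
Alas2, chrX:150547167-150547466: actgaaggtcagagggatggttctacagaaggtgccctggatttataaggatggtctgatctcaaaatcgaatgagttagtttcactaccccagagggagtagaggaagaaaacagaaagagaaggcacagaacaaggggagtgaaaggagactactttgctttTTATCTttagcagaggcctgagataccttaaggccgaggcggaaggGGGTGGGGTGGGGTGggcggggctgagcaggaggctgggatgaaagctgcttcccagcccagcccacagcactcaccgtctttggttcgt
Hba-x holds 1 TGATAA and 2 CACCC, Hbb-y 1 of each, and Alas2 1 AGATAA and 3 CACCC. Of the definitive globins, listed at 0 reads, Hba-a1 and Hba-a2 each hold 1 TGATAA and 2 CACCC, as Hba-x does. Hbb-bs holds 1 AGATAA and 1 CACCC, and Hbb-bt 3 CACCC. Of 32851 promoters of this length, 9.05% hold TGATAA, 11.2% AGATAA and 57.5% CACCC. These matches describe letters, not sites, and their part in the levels was not tested.

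Genes of the wider red cell program were close to the background. The lists of heme synthesis, red cell membrane, erythroid regulators and red cell maturation together hold 54 genes, of which 51 are in the table and 42 reached 10 reads. In cKO BECs 20 of these were higher and 22 lower. The rule called 1 of the 42 higher and 1 lower, the latter 0 with total counts as the scale. Over all 15554 genes that reached 10 reads it called 4.24% higher and 1.7% lower. On the log2(CPM + 1) scale the median difference of the 42 genes was -0.01, beside 0.05 over all 15554.

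Heme synthesis showed no called gene, with 6 of 8 enzymes higher and 2 lower. Alas1, the form of Alas2 used by most cells, had 39.8 and 41.2 CPM, and Fech, which inserts iron into heme, had 32.5 and 35.6 CPM. Alad, the enzyme after Alas2, had 213 and 161 reads, a ratio of 0.604 (interval 0.489 to 0.745).

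Of the 12 measured red cell membrane genes, 7 were higher and 5 lower. Rhag, the Rh-associated glycoprotein, had 2 and 0 reads. Ank1 (65 and 162 reads), Sptb (91 and 192 reads) and Tmod1 (37 and 109 reads), skeleton genes that striated muscle also uses, had ratios of 1.99, 1.69 and 2.36, none of them called.

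Among the regulators, 3 of 10 were higher and 7 lower. Gata1, the master regulator of red cells that mast cells and megakaryocytes also express, rose from 17 to 76 reads. This is 1.92 and 6.86 CPM, a ratio of 3.57 (interval 2.09 to 6.45), and it was the called gene. Of genes known from mast cells, Tpsg1, a tryptase, had 17 and 113 reads and Cd200r3 had 29 and 288, both named after their values were seen. Both came from the genes ranked by likeness to the summed embryonic globins, so their higher cKO reads follow from that choice. No list of mast cell genes was compared. Per read of the macrophage markers Gata1 was 2.22 times as high in cKO BECs, and per read of the endothelial markers 5.68 times. Both scales were chosen after seeing the data, and the rule does not apply to them. The part of mast cells and other cells in the level of Gata1 was not tested. Klf1, which drives definitive globin genes, had 3 and 4 reads. Bcl11a, a repressor of embryonic globins, had 12.3 and 12.2 CPM, and Sox6, its partner, 15.6 and 12.2 CPM. Of the maturation genes, 5 were higher and 8 lower, and none was called. Car2, the carbonic anhydrase abundant in red cells, had 158 and 78 reads, a ratio of 0.395 (interval 0.297 to 0.521). Hemgn had 2 and 0 reads, and Car1 and Trim58 had none.

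Of 8 genes that take up and break down hemoglobin and heme, several of them macrophage genes, 6 were higher in cKO BECs and 2 lower. Their median difference was 0.84 on the log2(CPM + 1) scale, beside 0.88 for the 12 macrophage markers. Hmox1, the heme oxygenase that opens the heme ring, rose from 971 to 11072 reads. This is 110 and 999 CPM, a ratio of 9.12 (interval 8.54 to 9.75), the 35th highest of the 15128 genes. Slc40a1, the iron exporter ferroportin, had 1318 and 4816 reads, a ratio of 2.92 (interval 2.75 to 3.11) short of the rule. Spic, a factor of iron-recycling macrophages, had 19 and 51 reads. Slc48a1, a heme transporter, had 415 and 997 reads. Cd163, the receptor for hemoglobin bound to haptoglobin, had 252 and 253 CPM, and the interval of its ratio holds 1 although it counts among the 6 higher genes. Hp, haptoglobin itself, was called lower with 15 and 0 reads, and the upper end of the interval of its ratio was 0.223.

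**Figure D3:**
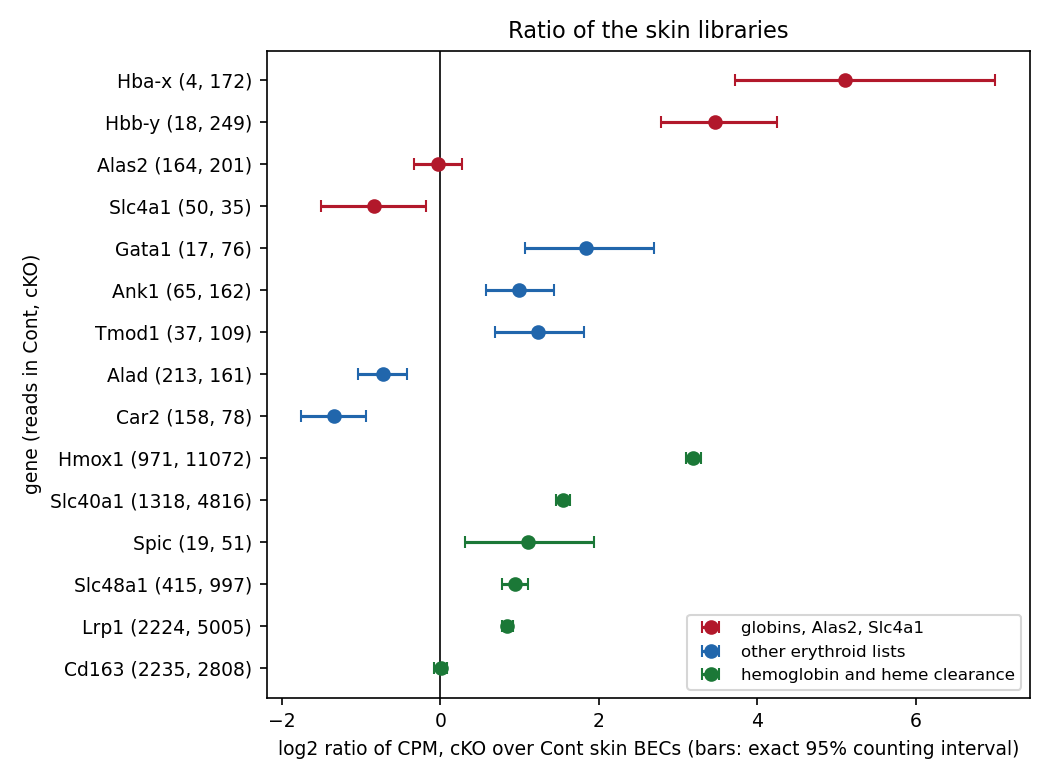
Log2 ratio of CPM, cKO over Cont skin BECs (x axis), for 4 genes of the set, 5 genes of the other erythroid lists chosen after their values were seen and 6 heme clearance genes (y axis, with the reads in Cont and cKO), where bars are exact 95% counting intervals. Hba-x, Hbb-y and Hmox1 stand far to the right, with Alas2 near 0 and Slc4a1, Alad and Car2 to the left.

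Markers of other cells moved between the same libraries. All 12 macrophage markers were higher in cKO BECs, beside 55.1% of the 15554 genes that reached 10 reads. The rule called 1 of the 12 higher, Marco, beside 4.24% of those genes. The sum of the macrophage markers went from 3814 to 6149 CPM. Mrc1 alone made 2538 and 3911 CPM of this sum, a ratio of 1.54. The ratios of single markers ran from 1.20 for Fcgr1 to 57.6 for Marco, which had 5 and 360 reads. Of 11 blood endothelial markers, 10 were lower and 1 higher, and the sum went from 6517 to 4099 CPM. Of 9 measured megakaryocyte and platelet markers, 4 were higher and 5 lower, and the list summed to 179 and 313 CPM, of which Pf4 alone made 150 and 281. No marker of the macrophage or endothelial list was at 0 in the pair, and Gp6 was the 1 platelet marker at 0. Per read of the macrophage markers, Hba-x was 21.3 times, Hbb-y 6.86 times, Hmox1 5.66 times, Gata1 2.22 times and Slc40a1 1.81 times as high in cKO BECs, and Alas2 and Slc4a1 were at 0.608 and 0.347. Per read of the endothelial markers, the values in the same order were 54.7, 17.6, 14.5, 5.68, 4.64, 1.56 and 0.890. The part of these cells in the levels of the globins and of Hmox1 was not tested beyond these ratios.

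**Figure D4:**
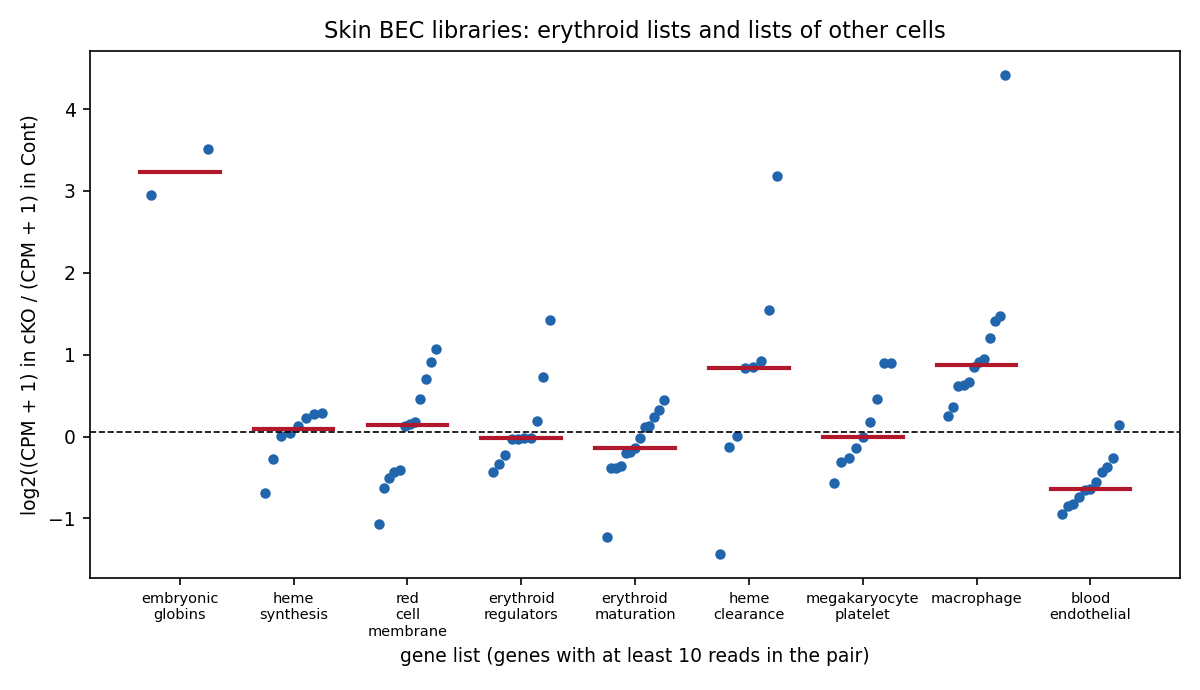
Log2 ratio of CPM with 1 added, cKO over Cont skin BECs (y axis), for each gene that reached 10 reads, by list (x axis), where points are genes, red lines list medians and the dashed line the median of all genes (0.05). The 2 embryonic globins lie above every gene of the red cell lists, and the endothelial markers lie mostly below the dashed line.

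Across the 6 libraries, the genes whose log2(CPM + 1) was most like that of the summed embryonic globins were Gzmb, C5ar2, Tnfrsf9, Trem2 and Upk1b. Their Pearson correlations ran from 0.997 to 0.9995 over these libraries, given as a description. The skin and cultured libraries form separate groups in all of them, and 129 of 11150 genes were above 0.95. Gzmb had 10 reads in Cont BECs, 115 in cKO BECs and 0 in each cultured library. Trem2, a receptor of macrophages, had 17 and 260 reads in the skin libraries and 0 to 4 in culture. As the genes were ranked by likeness to the summed embryonic globins, their higher cKO reads follow from that choice.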

How the data were processed

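RNA-seq libraries of 6 conditions, 1 each, were used. The authors pooled RNA of 2 to 3 embryos or flasks per library, used the ScriptSeq v2 kit, trimmed with skewer (-L 75), aligned the reads to mm10 with STAR, counted them per gene with VERSE and deposited raw counts for 24421 genes. From the deposited counts, CPM, exact (Clopper-Pearson) intervals and the calls of the study's rule were computed, with median of ratios factors from DESeq2 1.42.0 and, as an alternative, TMM factors from edgeR 4.0.16 (R 4.3.3, Python 3.11.15, scipy 1.17.1). As no molecular identifiers were used, reads can be PCR copies and intervals cover counting error only. Positions and transcripts are those of GENCODE M21, which held a transcript for 93.8% of the genes.

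The set and the lists were chosen with earlier results of these data known. Named genes are the set, list genes that were called or define their list, and the 5 genes of most similar pattern. The pattern was to be taken from the definitive globins and, as these had no read, was taken from the embryonic ones. Other genes were named after their values were seen, and some list genes are not reported here. Steps were tested on simulated data.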

Additional observations from a re-analysis of the deposited data

Results flagged for a closer look

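For 3 genes the ratio of OE over Cont lay above 1 in cultured BECs and below 1 in LECs, with 1 library each. None was called in either cell type, and the differences between cell types were not tested. The genes looked at were the set, Rhag, Add2, Hmox1, Gata1 and Slc40a1, where each cultured library had at least 10 reads. Add2 (1.31 and 1.77) and Slc40a1 (0.654 and 0.598) went the same way in BECs and LECs. The share of all genes with opposite directions was not computed. Alas2 had ratios of 1.42 in BECs and 0.757 in LECs, from 18 to 46 reads per library, and both intervals hold 1. Rhag, a red cell membrane gene, had ratios of 1.78 (148 and 208 reads) and 0.876 (1723 and 1794 reads). Hmox1 had ratios of 1.01 (interval 0.971 to 1.05, which holds 1) and 0.912.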

How the results depend on the processing

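Of 39 values of the ratios of Hba-x, Hbb-y, Alas2, Slc4a1 and the summed embryonic globins under other scalings and a pseudocount, 33 stayed within the counting interval and 0 called ratios changed direction. Hba-x ranged from 11.4 (1 added to each CPM) to 54.7, Hbb-y from 6.86 to 17.6, Alas2, not called, from 0.608 (macrophage reads) to 1.56 (endothelial reads) and Slc4a1 from 0.347 to 0.890. Scaling by macrophage or endothelial marker reads was chosen after seeing the data. By macrophage reads the sum of the embryonic globins was 9.54 times as high in cKO BECs. The count of genes of the set called higher was 2 under every scaling, minimum and fold tried except no minimum, where it was 3. In the erythroid lists, a fold of 2 called 2 genes higher and 3 lower, no minimum called 4 lower, and totals as the scale called 0 lower. The shares of embryonic among all alpha-like or beta-like reads, the ratio of the definitive globins and the sum of near-identical copies could not be computed, since the definitive globins had no read. No replicate could be left out, and reads limit Hba-x in Cont BECs (4 reads) and Hbb-bh1 most.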

Other observations

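Genes known from the red cell membrane differed in direction between culture and skin. Gypc had 60.6 CPM in Cont skin BECs against 2.54 and 8.08 in cultured Cont BECs and LECs, and Sptb 10.3 against 1.19 and 0.727. Rhag and Add2, named after their values were seen, were higher in culture. Rhag, the Rh-associated glycoprotein, had 2 and 0 reads in the Cont and cKO skin libraries, 148 and 208 in cultured Cont and OE-BECs, and 1723 and 1794 in Cont and OE-LECs, up to 66.0 CPM. Its transcript shares no window of 75 bases with another gene. Add2, an adducin of the membrane skeleton, had 37 and 54 reads in skin and 1641 to 3557 in culture. In CPM these are 4.17 and 4.87 in skin and 64.7 to 122 in culture. In the same cultured libraries Hba-x, Hbb-bh1, Hbb-y and Slc4a1 had 0 to 2 reads.

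Aqp1, the water channel of red cells that endothelium also expresses, had 412 and 310 CPM in the Cont and cKO skin libraries. In culture it was lower, at 126 and 4.31 CPM in Cont and OE-BECs, where it was called lower. Cont and OE-LECs had 8.35 and 3.61 CPM of Aqp1. Lmo2, a partner of Gata1 in red cells and endothelium, went from 85.2 to 26.6 CPM in OE-BECs and was called lower there, while it had 34.7 and 22.2 CPM in Cont and OE-LECs.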
